A study of Danio rerio with 31 samples.

Results

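The genes described here are 5 of the 15648 measured in the brains of 4 zebrafish populations, chosen by their high log2 expression values in fish of the population labelled Transgenic Mosaic 1. They are nsl1 (ENSDARG00000024471), rrh (ENSDARG00000039534), tyms (ENSDARG00000042894), c1ql4 (ENSDARG00000055317) and si:ch211-161h7.5 (ENSDARG00000093044), and each has 1 row in the data. RNA from individual samples of telencephalon (15 arrays) and midbrain (16 arrays) was measured on 31 one-colour arrays, and the values are log2 RMA intensities. Nadia and Pargana North are wild populations, and Scientific Hatchery and Transgenic Mosaic 1 are domesticated. All fish were adults of 1 year with the treatment given as control. Region and population made 8 groups, and each held 4 arrays, 2 from males and 2 from females, except those of Scientific Hatchery. That population had 1 male and 2 females in telencephalon and 1 male and 3 females in midbrain. The labels name no transgene, promoter or agent for Transgenic Mosaic 1, so the population is known here by its name alone.

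The genes with a role given here have different functions. The protein of nsl1 is a subunit of the MIS12 complex, the part of the kinetochore that joins chromosomes to the microtubule-binding proteins during mitosis. Thymidylate synthase, the product of tyms, makes the thymidine nucleotide that DNA needs, with a folate cofactor that dihydrofolate reductase then regenerates. The gene rrh encodes peropsin, an opsin known from the retinal pigment epithelium. The product of c1ql4 is one of the secreted C1q-like proteins, which in mammals bind the adhesion receptor BAI3 at synapses. No role is given here for si:ch211-161h7.5.

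Array medians were between 9.57 and 9.74, and the lowest 5% of values on an array ended between 4.51 and 4.68. The region labels were borne out by the forebrain factor gene emx3, which differed by 5.84 between telencephalon and midbrain on the log2 scale, and by the midbrain and hindbrain factor gene BARHL1, which differed by -7.72. The mean over 7 cerebellum marker genes was 11.3 to 12.4 on midbrain arrays and 9.28 to 9.98 on telencephalon arrays. These markers were not alike: telencephalon minus midbrain was -6.24 for FAT2 and 0.01 for pvalb7. It was -3.96 for one GABRA6 entry and -0.45 for the other. Whether the midbrain samples held adjoining tissue was not tested. Each array was made from a piece of tissue, so fewer cells of a type and less RNA per cell cannot be told apart.

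The name "high only in Transgenic Mosaic 1" held in both regions for 3 of the 5 genes. nsl1, rrh and tyms lay above every other array in telencephalon and in midbrain. c1ql4 and si:ch211-161h7.5 did so in telencephalon only. In midbrain si:ch211-161h7.5 was at the low end of the arrays in every population, and c1ql4 was high in every population. Over all genes, every Transgenic Mosaic 1 array lay above every other array for 0.524% in telencephalon, 0.671% in midbrain and 0.147% in both, and nothing is read from these shares because the genes were picked for their level. For the same reason the values of the 5 genes in Transgenic Mosaic 1 against the other populations are given as a description, with no test.

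**Figure D1:**
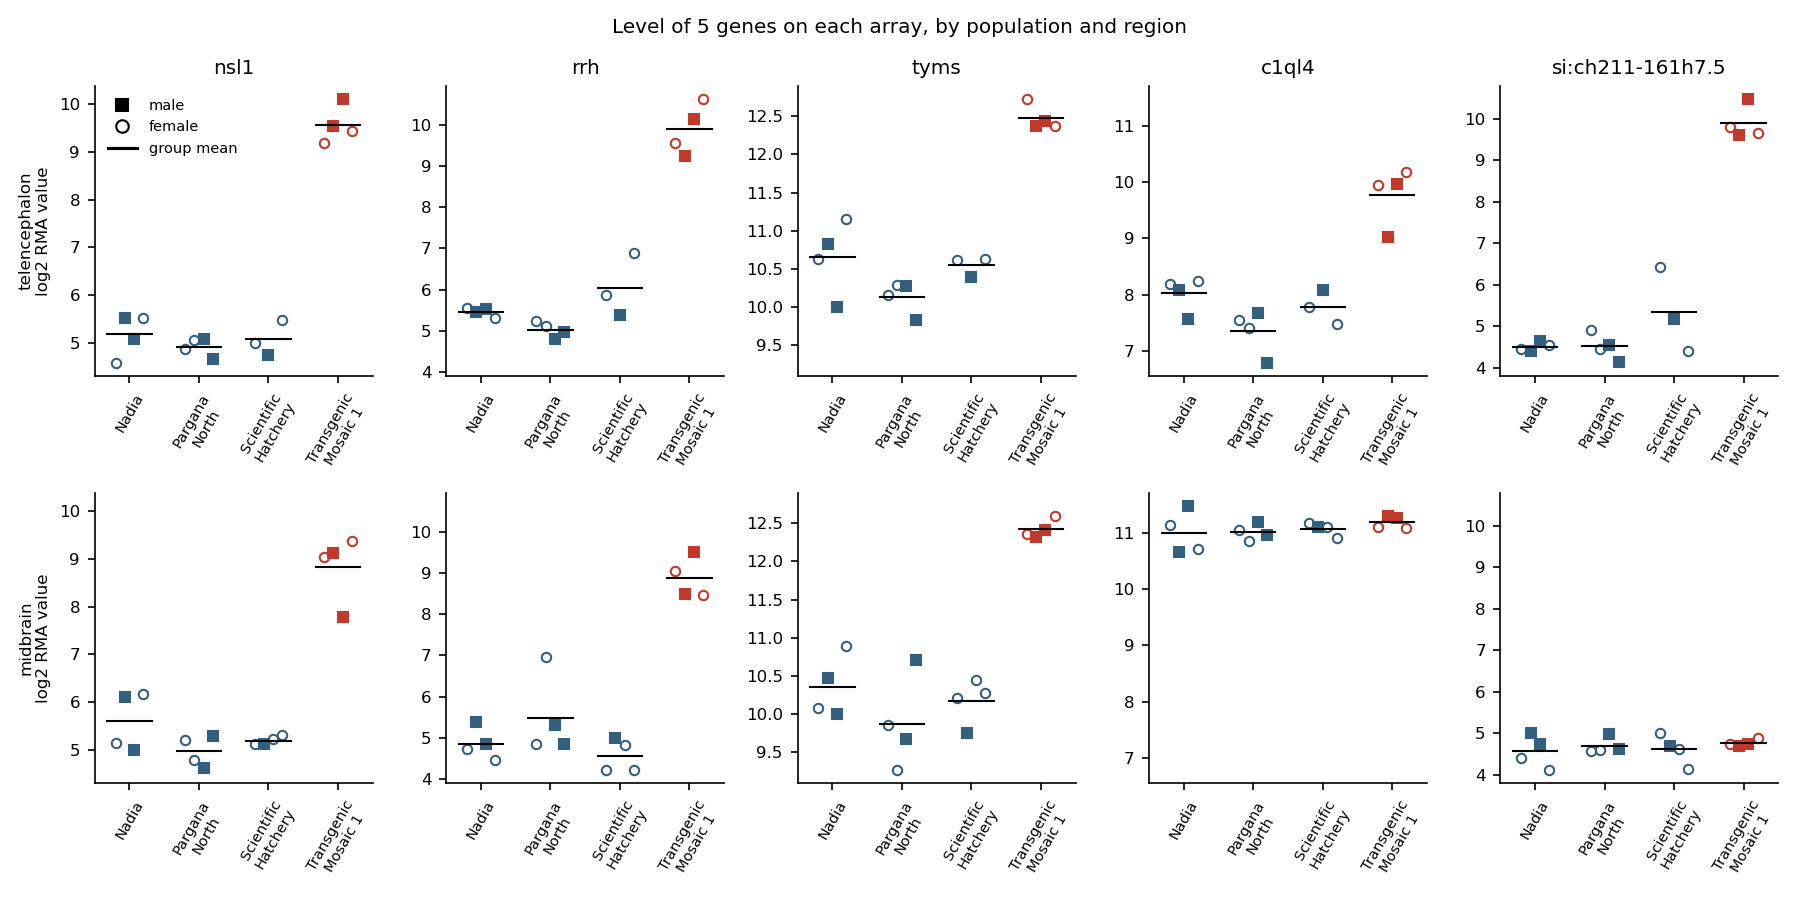
Each point is the log2 RMA value of 1 gene on 1 array (y axis), by population (x axis), with telencephalon above and midbrain below; squares are males, circles females and lines group means, and Transgenic Mosaic 1 is in red. nsl1, rrh and tyms are high in Transgenic Mosaic 1 in both rows, whereas c1ql4 is near 11 in every midbrain group and si:ch211-161h7.5 is high in the upper row alone.

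For the kinetochore gene nsl1, the 4 Transgenic Mosaic 1 telencephalon arrays read 9.17 (T12, female), 9.43 (T109, female), 10.09 (T99, male) and 9.54 (T63, male). A code joins T (telencephalon) or M (midbrain) to the fish number. The 11 telencephalon arrays of the other populations ran from 4.59 to 5.53, with a median of 5.07. The lowest Transgenic Mosaic 1 array was thus 3.64 above the highest of the others. In midbrain the same fish numbers read 9.04 (M12), 9.37 (M109), 7.78 (M99) and 9.12 (M63), against 4.63 to 6.17 (median 5.19) on the 12 other arrays. Number 99 was lowest of the 4 in midbrain and highest of the 4 in telencephalon. The 2 midbrain arrays above 6 outside Transgenic Mosaic 1 were both of Nadia, at 6.17 (M130, female) and 6.10 (M98, male).

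The Transgenic Mosaic 1 excess is used below for the mean of that population minus the average of the means of the other 3, adjusted for sex. For nsl1 it was 4.49 (SE 0.25), or 22.5-fold, in telencephalon and 3.58 (SE 0.25), or 12-fold, in midbrain. It ranked second of 15648 genes in each region. The medians of the other populations (5.07 and 5.19) were not far above the mark of the lowest 5% of values (4.51 to 4.68). The folds of nsl1 are thus set against low values.

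For peropsin, rrh, the Transgenic Mosaic 1 telencephalon arrays read 9.55 (T12), 10.63 (T109), 10.14 (T99) and 9.25 (T63). The other telencephalon arrays ran from 4.80 to 6.88, with a median of 5.38, and the highest was T123, a Scientific Hatchery female. In midbrain the values were 9.05 (M12), 8.47 (M109), 9.51 (M99) and 8.49 (M63) against 4.21 to 6.97 (median 4.85), and here the highest other array was M21, a Pargana North female. The next highest midbrain array outside Transgenic Mosaic 1 was at 5.38. The excess was 4.40 (SE 0.31), or 21.1-fold, in telencephalon and 3.90 (SE 0.31), or 14.9-fold, in midbrain, where it ranked first of all genes. The groups were apart by 2.37 in telencephalon and 1.49 in midbrain. The medians of the other populations were again not far above the low end of the arrays, so the folds of rrh are set against low values.

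Because rrh is a gene of the eye, markers of eye tissue were read on the same arrays. The mean of 13 pigment epithelium and pigment cell genes ran from 7.12 to 8.57 on the Transgenic Mosaic 1 telencephalon arrays and from 7.08 to 7.97 on the others. In midbrain it ran from 7.14 to 7.76 against 7.02 to 7.85. The mean of 9 photoreceptor genes ran from 6.23 to 9.51 against 6.20 to 8.0 in telencephalon, and from 6.0 to 6.47 against 6.07 to 9.03 in midbrain. T109, which had the highest rrh value in telencephalon, also had the highest means of both lists there (8.57 and 9.51). In the other 3 Transgenic Mosaic 1 telencephalon samples, rrh was between 9.25 and 10.14 and the pigment list mean between 7.12 and 7.65. Outside Transgenic Mosaic 1, M21 of Pargana North had the highest pigment list mean of the 16 midbrain arrays (7.85), the highest mean of 6 lens genes (6.13) and the second highest photoreceptor mean (8.19). T123 of Scientific Hatchery was second of 15 for the pigment list (7.97) and 9th for the photoreceptor list (6.48). The part of eye tissue in the rrh values was not tested.

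Of the 3 genes that were high in both regions, tyms had the narrowest spread in Transgenic Mosaic 1. Its telencephalon arrays read 12.72 (T12), 12.37 (T109), 12.43 (T99) and 12.38 (T63), against 9.83 to 11.16 (median 10.40) in the others. In midbrain they read 12.36 (M12), 12.59 (M109), 12.42 (M99) and 12.33 (M63), against 9.27 to 10.89 (median 10.15). The groups were apart by 1.21 in telencephalon and 1.43 in midbrain. The excess of tyms was 2.04 (SE 0.20), or 4.11-fold, in telencephalon and 2.29 (SE 0.20), or 4.88-fold, in midbrain, ranks 30 and 15 among all genes.

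For the synaptic ligand gene c1ql4, the Transgenic Mosaic 1 telencephalon arrays read 9.94 (T12), 10.18 (T109), 9.96 (T99) and 9.02 (T63). The other 11 ran from 6.79 to 8.25, with a median of 7.67, so the gap was 0.77. The midbrain values of Transgenic Mosaic 1 (11.08 to 11.29) lay inside the range of the other populations (10.65 to 11.47). The excess was 2.07 (SE 0.18), or 4.20-fold, in telencephalon, rank 26, and 0.15 (SE 0.18) in midbrain. The raised telencephalon level thus remained below that of every midbrain array.

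For si:ch211-161h7.5, the 4 telencephalon arrays of Transgenic Mosaic 1 read 9.81 (T12), 9.65 (T109), 10.47 (T99) and 9.62 (T63). The 11 other telencephalon arrays were far lower, from 4.14 to 6.43 with a median of 4.54. The 2 highest of these were both of Scientific Hatchery, T47 at 6.43 and T57 at 5.18. In midbrain the Transgenic Mosaic 1 values (4.68 to 4.89) lay inside the range of the other 12 arrays (4.11 to 5.01), which is the low end of the arrays. The telencephalon excess of 5.10 (SE 0.24), or 34.3-fold, ranked first among all genes, and the midbrain excess was 0.12 (SE 0.23). The median of the other telencephalon arrays (4.54) was at the low end too, so the 34.3-fold is set against low values.

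**Figure D2:**
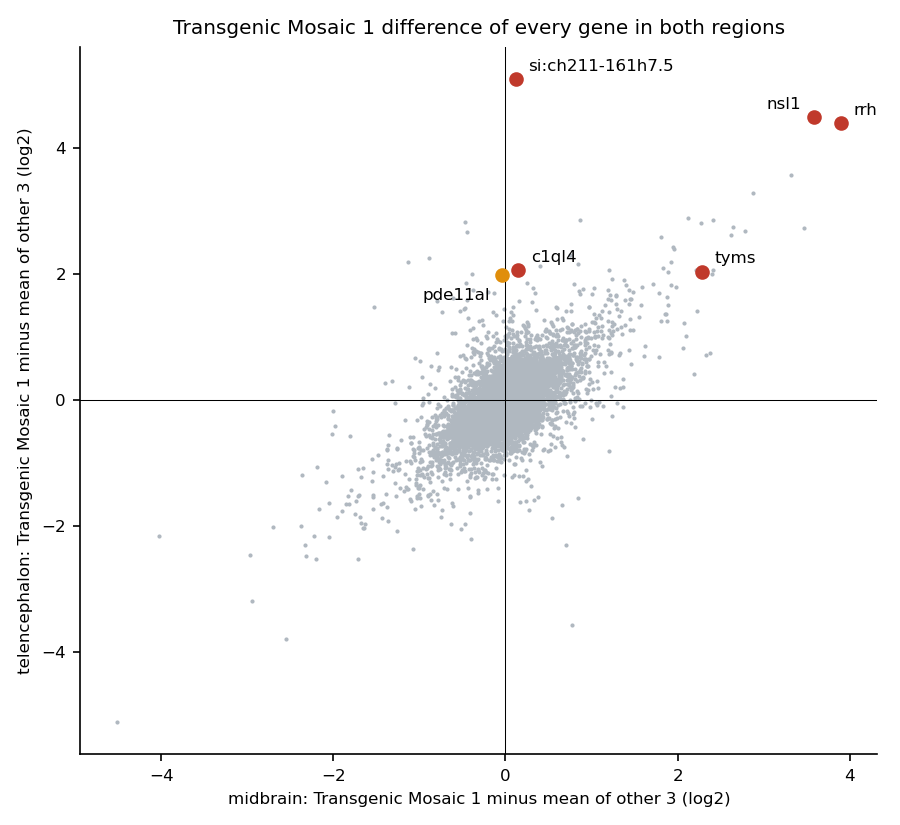
Each point is 1 of 15648 genes, with its Transgenic Mosaic 1 excess in midbrain on the x axis and in telencephalon on the y axis (log2 units). nsl1, rrh and tyms lie near the diagonal, and si:ch211-161h7.5, c1ql4 and pde11al lie close to 0 on the midbrain axis.

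The excess in telencephalon minus that in midbrain is built from the values that chose the genes, so it too is a description for all 5. It was 0.91 (SE 0.35) for nsl1, 0.50 (SE 0.44) for rrh, -0.25 (SE 0.28) for tyms, 1.92 (SE 0.25) for c1ql4 and 4.98 (SE 0.33) for si:ch211-161h7.5.

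Over all genes, 4 (0.0256%) passed limma for this difference between regions, and 11 with the fish number as a random block. c1ql4 and si:ch211-161h7.5 are 2 of the 4, from which nothing is read. The other 2 were pde11al (2.03, SE 0.28, limma adjusted p = 0.0013), of the phosphodiesterase family that breaks down cyclic nucleotides, and EEPD1 (-1.23, SE 0.22, adjusted p = 0.045). EEPD1 passed in 7 of 31 fits that left out 1 array, and its adjusted p rose to 0.28 without M12 of Transgenic Mosaic 1. With the fish number as a fixed block it did not pass either (-1.20, adjusted p = 0.15). pde11al passed in all 31, and in all 13 alternative fits with a limma adjusted p of at most 0.025. The levels of pde11al had the shape of those of c1ql4. Its Transgenic Mosaic 1 telencephalon arrays read 7.78 (T12), 6.90 (T109), 8.50 (T99) and 7.59 (T63), against 4.90 to 6.15 in the other populations. In midbrain the group means were 10.5 in Nadia, 10.7 in Pargana North, 10.6 in Scientific Hatchery and 10.6 in Transgenic Mosaic 1.

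Since both c1ql4 and pde11al are midbrain-high genes that were raised in the Transgenic Mosaic 1 telencephalon, other genes of that kind were read as well. There were 80 genes, members left out, at least 3 log2 units higher in midbrain in the other 3 populations. Their median excess in the Transgenic Mosaic 1 telencephalon was -0.11, beside -0.05 over all genes, and 33 of the 80 were above 0. Of the 80, 5 passed as higher, pde11al among them, and 3 as lower in telencephalon. There 1.83% of all genes passed as higher and 2.43% as lower. At a cutoff of 2 log2 units there were 243 genes, of which 9 passed as higher and 10 as lower. The only gene of the 80 above c1ql4 was TPH2, of serotonin synthesis (2.13, SE 0.64, limma adjusted p = 0.058). Next came pde11al and then SLC6A4 (1.24, SE 0.33, adjusted p = 0.033). The comparison was chosen after the values of c1ql4 were seen, and the set shares the other populations' telencephalon arrays with the excess. Of the 7 cerebellum markers, 1 passed as higher in telencephalon, the protocadherin gene FAT2 (0.99, SE 0.19, adjusted p = 0.0046, and 0.59 with adjusted p = 0.16 without Scientific Hatchery). The cerebellum list mean on the Transgenic Mosaic 1 telencephalon arrays was 9.34 (T12), 9.52 (T109), 9.98 (T99) and 9.48 (T63), and 9.28 to 9.57 on the others. The mean of 5 myelin genes was 10.79 (T12), 10.55 (T109), 11.97 (T99) and 11.07 (T63), against 10.73 to 11.07. T99 was the highest of the 15 arrays for both lists. The part of such tissue in the c1ql4 values was not tested.

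The region difference, telencephalon minus midbrain, was fitted in the other 3 populations, because the Transgenic Mosaic 1 arrays chose the genes. Low values elsewhere were part of that choice, so the difference is a description for the 5 here too. Without Transgenic Mosaic 1, 36.7% of all genes passed. c1ql4 is the only 1 of the 5 among these, from which nothing is read. Its difference was -3.32 (SE 0.13), with -2.97 in Nadia, -3.66 in Pargana North and -3.36 in Scientific Hatchery. In Transgenic Mosaic 1 it was -1.41 (SE 0.21). For si:ch211-161h7.5 the value without Transgenic Mosaic 1 was 0.13 (SE 0.18), beside 5.13 (SE 0.28) within Transgenic Mosaic 1. By population it was -0.06 in Nadia, -0.17 in Pargana North and 0.66 (SE 0.31) in Scientific Hatchery. For rrh it was 0.52 (SE 0.23), with 0.61 (SE 0.38) in Nadia, -0.47 (SE 0.38) in Pargana North and 1.39 (SE 0.42) in Scientific Hatchery. Pargana North is the population whose array M21 read 6.97. The value without Transgenic Mosaic 1 was -0.20 (SE 0.16) for nsl1 and 0.29 (SE 0.16) for tyms. Over all 4 populations, where 43.6% of all genes passed, the difference is a description for the 5: -2.85 (SE 0.11) for c1ql4, 1.39 (SE 0.15) for si:ch211-161h7.5, 0.64 (SE 0.19) for rrh, 0.24 (SE 0.12) for tyms and 0.05 (SE 0.15) for nsl1.

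Low values in the other 3 populations were part of the choice of the 5 genes, so their levels there are a description. The overlap of ranges was not counted over all genes, and nothing is read from it. In midbrain the ranges of arrays overlapped for each of the 5 genes and every pair of these populations. In telencephalon they overlapped except for rrh and tyms. rrh was lowest in Pargana North (4.80 to 5.24, mean 5.03), below Nadia (5.30 to 5.56, mean 5.46) and Scientific Hatchery (5.38 to 6.88, mean 6.04), and the last 2 overlapped. tyms was lower in Pargana North (9.83 to 10.29) than in Scientific Hatchery (10.40 to 10.63), and Nadia (10.01 to 11.16) overlapped both. The order of means for nsl1 was Nadia, Scientific Hatchery, Pargana North in both regions, within overlapping ranges.

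The difference between males and females is a description for the 5 genes too, since the levels that chose them, high or low, enter it. Over all genes, 5 (0.032%) passed limma in telencephalon and 1681 had an unadjusted p under 0.05. In midbrain 1 gene (0.00639%) passed, with 647 unadjusted. None of the 5 passed or had an unadjusted p under 0.05 in either region, from which nothing is read. The largest difference in size, male minus female, was -0.35 for rrh in telencephalon (SE 0.28). In midbrain it was -0.26 for nsl1 (SE 0.22). These fits include the Transgenic Mosaic 1 arrays. Without them rrh was at -0.34 in telencephalon (SE 0.33) and nsl1 at -0.08 in midbrain (SE 0.23). The largest midbrain difference was then 0.33 for si:ch211-161h7.5 (SE 0.25).

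The Transgenic Mosaic 1 excess of males minus that of females, with 2 of each sex in that population in each region, is also a description for the 5. Over all genes it passed for 0.0767% in telencephalon and 0.0959% in midbrain. For nsl1 it was 0.62 (SE 0.52) in telencephalon and -0.67 (SE 0.52) in midbrain. For c1ql4 in telencephalon it was -0.51 (SE 0.37), with females of Transgenic Mosaic 1 at 9.94 and 10.18 and males at 9.02 and 9.96. The number of arrays limits the precision of these values.

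For each gene, the 3 genes with the most similar values were taken by Pearson r over the 31 arrays, after each region's mean was subtracted, among genes whose symbol is not a clone or locus name. All points share the step between Transgenic Mosaic 1 and the rest, so r is a description. nsl1 was most like tyms (r = 0.94), rrh (0.91) and GUF1 (0.90), and tyms was most like nsl1, GUF1 (0.89) and rrh (0.85). rrh was most like nsl1, clmnb (0.86) and tyms. GUF1, a translation factor gene of mitochondria, had an excess of 0.91 in telencephalon and 0.95 in midbrain, and clmnb 1.24 in both. Outside Transgenic Mosaic 1 the group means of clmnb were 4.73 to 5.28, not far above the low end of the arrays.

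si:ch211-161h7.5 was most like pde11al (r = 0.89), c1ql4 (0.89) and PAQR5 (0.76). For c1ql4 the highest were pde11al (0.86), the laminin gene LAMA5 (0.75) and FBXO45 (0.74), all below its r of 0.89 with si:ch211-161h7.5, which has a clone name and so was not among the 3. The excess in telencephalon and midbrain was 1.57 and 0.31 for PAQR5, 0.99 and 0.37 for LAMA5, and 0.55 and 0.32 for FBXO45. The group means of PAQR5 outside Transgenic Mosaic 1 were 4.56 to 5.31, not far above the low end of the arrays. With telencephalon arrays alone, none of the 3 genes most like c1ql4 or si:ch211-161h7.5 stayed in that place, and the same held with midbrain arrays alone.

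The nearest genes on the chromosome that are in the data were compared for 4 of the 5 genes, which could be placed in the RefSeq gene order, on 4 different chromosomes (c1ql4 could not be tied to 1 RefSeq gene). The nearest 5 on each side are not all adjacent, since genes without a match to the data were passed over. Of these 40 genes, 4 were directly next to the gene in the annotation and 20 were within 5 annotated genes. The farthest was 8 annotated genes away for nsl1, 12 for si:ch211-161h7.5, 14 for rrh and 41 for tyms. In telencephalon 1.83% of all genes passed as higher in Transgenic Mosaic 1 and 2.43% as lower. The shares in midbrain were 0.946% and 0.607%. Of the 40, 2 were higher and 0 lower in telencephalon by limma, and 0 passed in midbrain. At an unadjusted p under 0.05 there were 8 and 3 of the 40, beside 18.8% and 11% of all genes. The unadjusted telencephalon count is thus near the background. Their median excess was -0.06 in telencephalon and 0.03 in midbrain, beside -0.05 and 0.01 over all genes.

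The 2 were adh8b, an alcohol dehydrogenase gene 5 annotated genes from rrh, and ACO1, a gene for the cytosolic aconitase that also acts as an iron regulatory protein, 4 annotated genes from tyms. ACO1 was higher by 0.66 in telencephalon (SE 0.15, adjusted p = 0.011; 0.54 with adjusted p = 0.061 without Pargana North) and by 0.54 in midbrain (SE 0.14, adjusted p = 0.056). Its telencephalon arrays of Transgenic Mosaic 1 ran from 12.14 to 12.44, and the group means elsewhere were 11.4 to 11.8. The highest telencephalon array elsewhere was at 12.06, of Nadia. adh8b was higher by 1.59 in telencephalon (SE 0.38, adjusted p = 0.019) and by 1.22 in midbrain (SE 0.38, adjusted p = 0.12).

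The 4 fish of Transgenic Mosaic 1 were not alike for adh8b. In telencephalon the values were 9.6 (T12), 8.93 (T109), 8.92 (T63) and 6.91 (T99), and in midbrain 8.90 (M12), 9.30 (M109), 8.78 (M63) and 6.10 (M99). Number 99 was thus low in both regions, within or below the other populations (5.85 to 7.54 in telencephalon, 6.62 to 7.61 in midbrain), although its rrh values were 10.14 and 9.51. The telencephalon call for adh8b was lost without T12 (1.37, adjusted p = 0.079), T109 (1.62, adjusted p = 0.060) or T63 (1.32, adjusted p = 0.071). It was also lost without Pargana North (1.52, limma adjusted p = 0.074).

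The neighbours of nsl1 (HIVEP2, ADAT2, pex3, ATF3, BATF3, tatdn3, spata45, FLVCR1, ANGEL2 and galnt14) had an excess of -0.39 to 0.30 in telencephalon and -0.06 to 0.30 in midbrain. Beside adh8b, those of rrh were GNG2, commd8, DAPP1, LAMTOR3, si:dkey-20i10.7, ENPEP, METAP1, adh8a and fam241a. The other neighbours of tyms were PPARGC1A, DHX15, SEPSECS, ppp1r15a, PSMD9, ywhae2, MRPL21, cbln6 and cbln8. Those of si:ch211-161h7.5 were GARS1, NKTR, SEC22C, VIPR1, si:ch211-161h7.4, cst14a.2, MIX23, fam162a, DRD3 and QTRT2. The adjacent si:ch211-161h7.4, of the same clone name, had an excess of -0.20 in telencephalon (SE 0.09, adjusted p = 0.21).

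**Figure D3:**
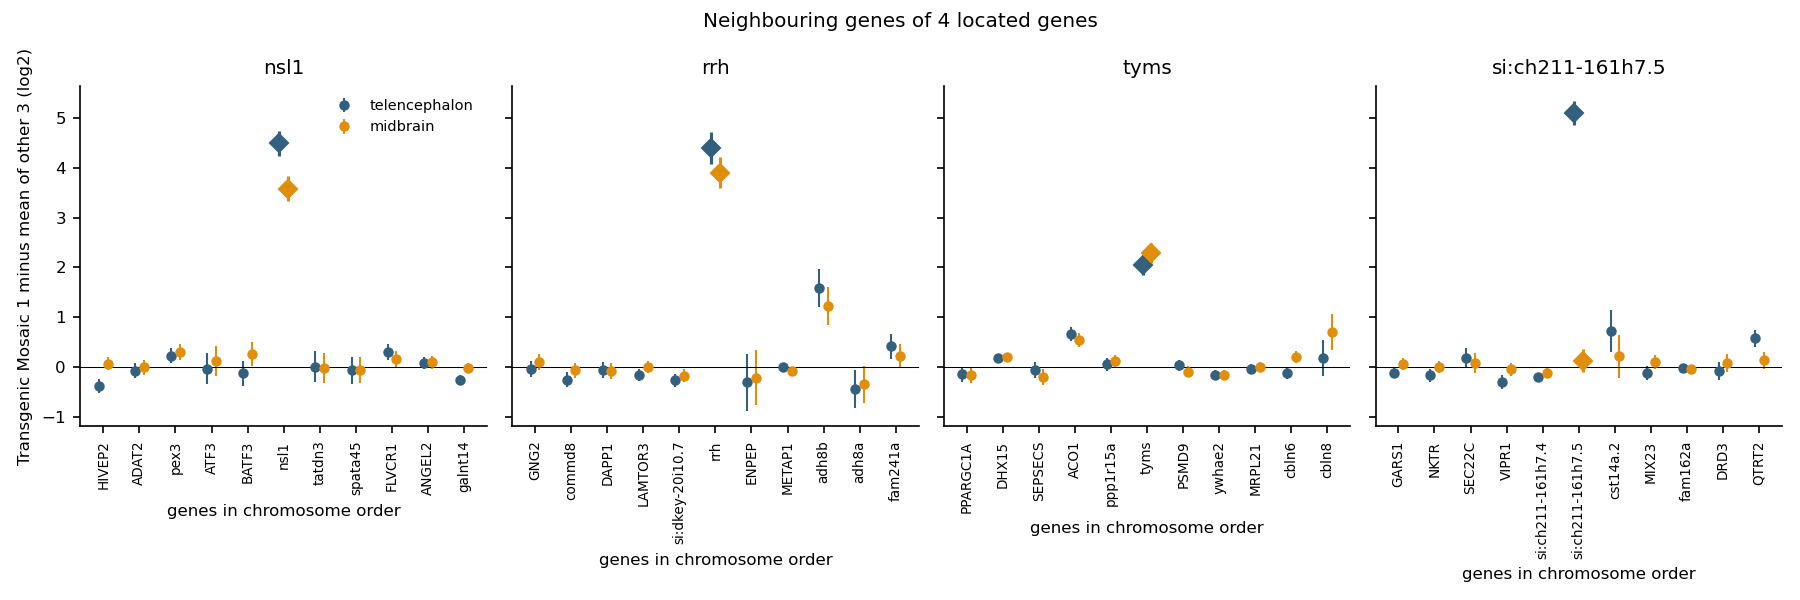
Transgenic Mosaic 1 excess with its standard error (y axis, log2 units) of the nearest 5 genes on each side (x axis, gene order only, not to distance) of the 4 located genes, with the located gene as a diamond; blue is telencephalon and orange midbrain. The 40 neighbours lie between -0.45 and 1.59, and adh8b and ACO1 passed the test in telencephalon.

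Genes that work with the 5 were read from lists, each count being that at a limma adjusted p under 0.05, followed by that at an unadjusted p under 0.05 in telencephalon and midbrain, to be read beside 18.8% and 11% of all genes. Of 21 other kinetochore genes, 1 was lower in the Transgenic Mosaic 1 telencephalon and none passed in midbrain (3 and 1 unadjusted, median excess -0.04 and 0.02). The lower gene was CENPI, of the inner kinetochore (-1.13, SE 0.27, limma adjusted p = 0.017), and it did not pass without T99 (-0.82, adjusted p = 0.099) or T109 (-1.08, adjusted p = 0.072) of Transgenic Mosaic 1. Nor did CENPI pass with each region fitted alone (adjusted p = 0.099), with array weights (0.081) or without Pargana North (0.058). In 28 cell cycle genes, 1 was higher and 1 lower in telencephalon and none passed in midbrain (5 and 5 unadjusted, median -0.04 and 0.07). CCNB1, the cyclin of mitotic entry, was higher (0.87, SE 0.24, adjusted p = 0.039), and the mitotic kinase gene aurka was lower (-0.85, SE 0.22, adjusted p = 0.025). Group means of CCNB1 outside Transgenic Mosaic 1 were 4.78 to 5.58, not far above the low end of the arrays. CCNB1 passed in 21 of 31 fits that left out 1 array, and fell to 0.53 (adjusted p = 0.19) without T63. It did not pass with array weights (adjusted p = 0.053), each region alone (0.15), or without Nadia (0.13), Pargana North (0.15) or M21 and T123 together (0.072). aurka did not pass without T12 (-0.66, adjusted p = 0.13), T109 (-0.85, adjusted p = 0.084) or T63 (-0.80, adjusted p = 0.065). The same held with each region fitted alone (adjusted p = 0.13), without Nadia (0.10) and without Scientific Hatchery (0.074).

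Of 23 other genes of thymidylate, folate and deoxynucleotide synthesis, 1 was higher and 1 lower in telencephalon and none passed in midbrain (5 and 6 unadjusted, median -0.04 and 0.01). dhfr, the dihydrofolate reductase that works in the same cycle as thymidylate synthase, was lower by -1.50 in telencephalon (SE 0.24, adjusted p = 7.3e-04). The Transgenic Mosaic 1 telencephalon arrays read 7.21 (T12), 6.38 (T109), 7.65 (T99) and 7.62 (T63), all below the other populations, whose lowest array was at 8.32. The call held in all 31 fits that left out 1 array. In midbrain dhfr differed by -0.90 (SE 0.24, adjusted p = 0.056). There the Transgenic Mosaic 1 arrays (7.30 to 8.13) overlapped those of Scientific Hatchery (lowest 7.59) and Nadia (lowest 8.11). FPGS, the enzyme that adds glutamates to folates, was higher by 0.57 in telencephalon (SE 0.14, adjusted p = 0.020), and did not pass without T109 (0.45, adjusted p = 0.14) or T99 (0.48, adjusted p = 0.084). Nor did FPGS pass with each region fitted alone (adjusted p = 0.14), with array weights (0.080) or without Scientific Hatchery (0.15).

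Of 34 other opsin and visual cycle genes, none passed in telencephalon and 1 was higher in midbrain (11 and 3 unadjusted, median 0.03 and -0.11). It was RPE65 (ENSDARG00000094752), a retinoid isomerase gene, with a midbrain excess of 1.15 (SE 0.28, adjusted p = 0.031) and a telencephalon excess of 0.61 (SE 0.28, adjusted p = 0.24). Its midbrain values were 9.12 (M12), 9.31 (M109), 9.43 (M63) and 8.13 (M99), against group means of 7.64 to 8.04. M99 lay below the highest arrays of Nadia (8.41) and Scientific Hatchery (8.39). This RPE65 entry did not pass without M12 (1.1, adjusted p = 0.15), M109 (1.03, adjusted p = 0.18) or M63 (1.0, adjusted p = 0.15) of Transgenic Mosaic 1, nor without M57 of Scientific Hatchery (1.09, adjusted p = 0.053). Leaving out Nadia (adjusted p = 0.067), Pargana North (0.10) or Scientific Hatchery (0.0505) also lost the call. The other RPE65 entry (ENSDARG00000007480) went the other way in midbrain (-0.53, SE 1.05, limma adjusted p = 0.94). In telencephalon that entry was at 1.42 (SE 1.07, adjusted p = 0.50). The 2 telencephalon genes nearest the threshold were parietopsin (0.91, SE 0.29, adjusted p = 0.079) and rdh5 (1.85, SE 0.63, adjusted p = 0.099). Up to 3 genes of the list passed in telencephalon when 1 Transgenic Mosaic 1 array was left out (3 without T99, 2 without T12 and 1 without T63).

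Of 22 other C1q-like and cerebellin ligands and their receptors, none passed in either region (3 and 0 unadjusted, median 0.01 and 0.05). Only 23 of the 45 entries of this list, c1ql4 among them, matched the data. The gene of the receptor BAI3 was not among the matched genes, so it was not read. The smallest p-values in telencephalon were those of nrxn1b, a neurexin gene (-0.36, SE 0.12, adjusted p = 0.094), and cbln14 (-0.44, SE 0.17, adjusted p = 0.15). The list gave 1 call in telencephalon without T99.

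**Figure D4:**
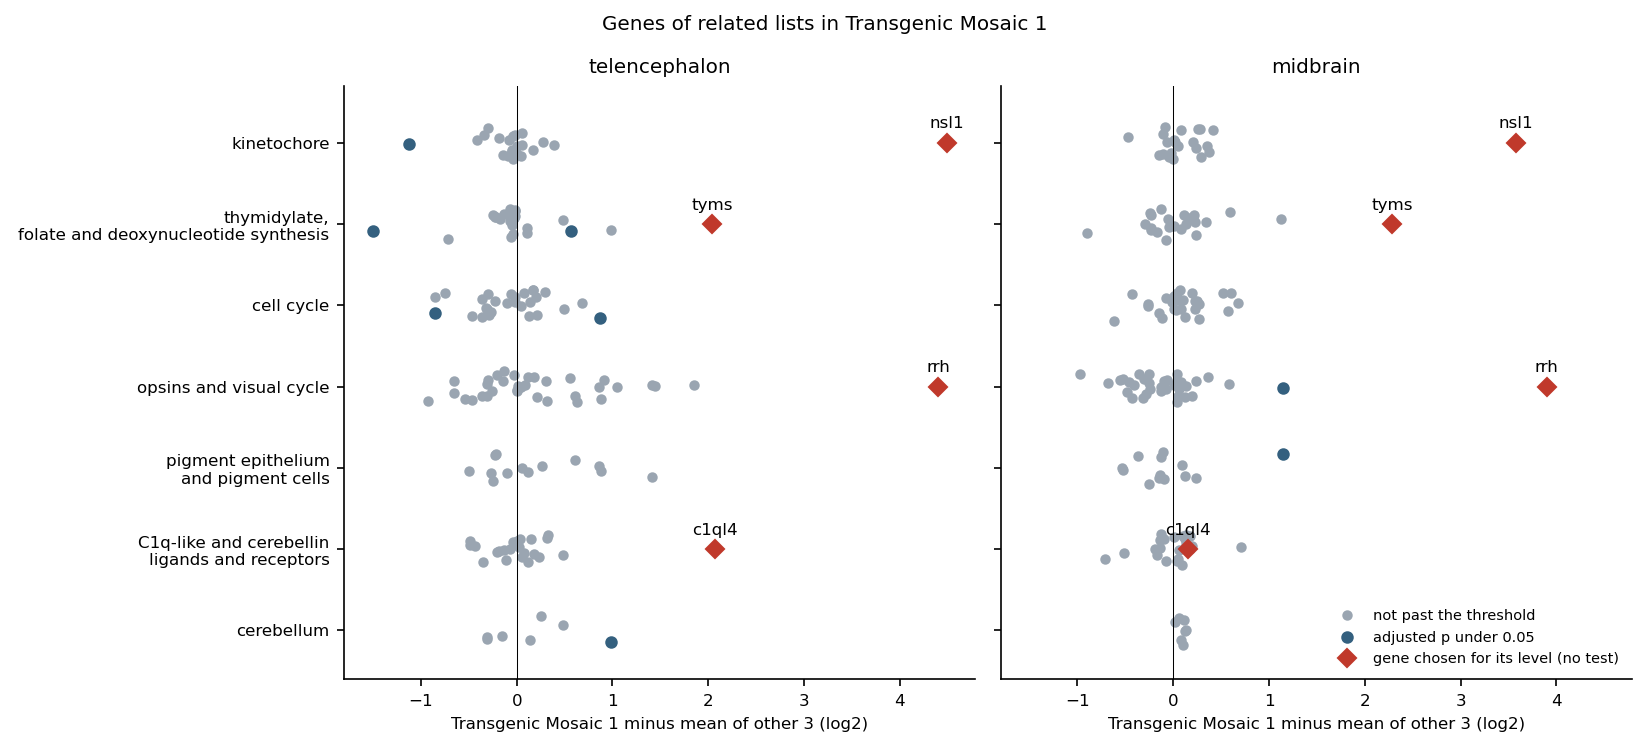
Transgenic Mosaic 1 excess (x axis, log2 units) of the genes in 7 lists (rows) in telencephalon (left) and midbrain (right); blue points passed limma at an adjusted p under 0.05, grey points did not, and red diamonds are the genes picked for their level, with no test. The other genes of each list centre near 0, whereas nsl1, tyms and rrh stand at 2.04 or above in both panels.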

How the data were processed

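Per the labels' protocols, Trizol RNA of individual brain samples was copied with random hexamers, labelled with Cy3 and hybridised to 1-colour NimbleGen arrays. The values are the authors' deposited RMA intensities, with build Zv9, per the submitters' processing notes. That the deposited scale is log2 was read from the values, and they were not rescaled. One row without a gene (0.00639% of rows) was left out. Symbols matched 13251 of 15648 gene IDs. Gene order came from RefSeq (10577 genes matched), and its coordinates were not used because its build differs. No sequences were used here.

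The members and gene lists were chosen with earlier results of these data known. limma 3.58.1 (R 4.3.3) fitted a mean for each of 8 groups and a sex term in each region over 31 arrays (21 residual degrees of freedom, prior 2.92), with Benjamini-Hochberg adjustment over all genes and a threshold of 0.05. Excess by sex used a mean for each region, population and sex. For the 5 members, the sex difference, the excess and the differences of the excess between regions or sexes are descriptions. The region difference was fitted without the population whose arrays chose the members. It is a description for the 5 too, because low values elsewhere were part of the choice. The code was tested on simulated data. Besides the 5 members, the genes named were the 3 most similar by r, the nearest 5 neighbours on each side, and of each list the genes called or the 2 with the smallest p. EEPD1, emx3, BARHL1, the 80 and 243 midbrain-high genes and the markers read beside results were added after their values were seen. Alternatives were variance moderation, array weights, each region alone, no sex term, 2 rescalings, a filter on the dimmest 25% of genes, fish number as a block, leaving out arrays or populations, and a threshold of 0.01.

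Fish numbers recur in both regions (15 of them). Deviations from group means correlated above 0.1 in all 15 same-number pairs (r 0.12 to 0.54). In 13 the own number was highest within the population, so the numbers pair these samples by the data. The exceptions were the Nadia males 98 (0.13, against 0.22 with another number) and 106 (0.12 against 0.27). The main fit held no block on the number. The labels do not say that a number is 1 fish. Where nothing says that samples are independent beyond being individual samples, p-values measure the spread between them.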

Additional observations from a re-analysis of the deposited data

Results flagged for a closer look

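The telencephalon excess of si:ch211-161h7.5 in Transgenic Mosaic 1 was larger than its midbrain excess by 4.98 on the log2 scale, and that of c1ql4 by 1.92. Both were flagged for the size of this difference. Their Transgenic Mosaic 1 arrays were above every other array in telencephalon and inside the range of the others in midbrain. Over all genes, 82 (0.524%) were above every other array in telencephalon and 23 (0.147%) in both regions, so this order of arrays does not set the 2 apart. The differences are not tested here, since the telencephalon values were among those that chose the genes. The 2 genes differ in how they reach this: si:ch211-161h7.5 was at the low end of all midbrain arrays, and c1ql4 was high on all of them.

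One single array stood apart from its group. For si:ch211-161h7.5 in Pargana North midbrain, male M85 read 4.99 while the other 3 arrays were between 4.57 and 4.61. It was the only such array in the 35 groups of 4 that were checked, where chance flags about 1 in 20, and its value is at the low end of the arrays.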

How the results depend on the processing

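The alternatives for the region difference were run over all 4 populations, where the calls of the 5 genes rest in part on the arrays that chose them. There c1ql4 ran from -2.93 to -2.79 with 1 array left out. rrh was 0.38 without Scientific Hatchery and -0.47 within Pargana North alone. si:ch211-161h7.5 was -0.0563 within Nadia and -0.17 within Pargana North, and 0.66 (SE 0.31) within Scientific Hatchery. Members called were 3, beside 43.6% of all genes, and 1 without Transgenic Mosaic 1, beside 36.7%. Without the dimmest 25% of genes 1 was called, and the filter kept only c1ql4 and tyms. Members called were 3 to 4 with 1 array left out, the fourth being tyms without M140 of Pargana North, and 6528 to 6768 of all genes passed. The region difference is a description for the 5 genes, so nothing is read from these calls. With 1 array left out, the telencephalon excess, which has no test, ran from 4.32 to 4.62 for nsl1, 4.19 to 4.60 for rrh, 1.97 to 2.13 for tyms, 1.96 to 2.29 for c1ql4 and 4.88 to 5.28 for si:ch211-161h7.5. Over all 4 populations, the rescalings changed no region or sex call of the 5 genes. Neither did the fish number as a replicate block, fixed or random. No block was fitted without Transgenic Mosaic 1.

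Counts over all genes moved more. For Transgenic Mosaic 1 in telencephalon, 666 genes passed; 212 did with each region fitted alone, 173 at a threshold of 0.01 and 272 to 758 with 1 array left out (272 without T109 of Transgenic Mosaic 1). In midbrain 243 passed; 1007 did with array weights, 157 without the dimmest 25%, 90 at 0.01 and 96 to 273 with 1 array left out (96 without M12 of Transgenic Mosaic 1, 129 without M109 and 157 without M63). For the excess between regions, 4 passed, against 8 with array weights, 11 with the random replicate block and 3 to 7 with 1 array left out (7 without T99).

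Between the sexes, 5 genes passed in telencephalon. There were 8 with trend and robust moderation, 1 with each region alone or at 0.01, 0 without Nadia, Scientific Hatchery or Transgenic Mosaic 1, 12 without Pargana North, 3 without M21 and T123, and 1 to 19 with 1 array left out. In midbrain 1 passed; there were 2 with array weights, each region alone or without Pargana North, 0 without Nadia, Scientific Hatchery or Transgenic Mosaic 1, and 1 to 2 with 1 array left out. For the excess between sexes in telencephalon, 12 passed, against 5 with array weights or at 0.01, 3 with each region alone and 6 to 212 with 1 array left out. In midbrain 15 passed, against 30 with array weights, 9 without the dimmest 25% or at 0.01 and 8 to 60 with 1 array left out. Leaving out the single Scientific Hatchery male of a region could not be fitted for these 2. None of the 5 genes was called for sex in any of these fits, from which nothing is read. The causes were not tested. Leaving out M21 of Pargana North and T123 of Scientific Hatchery together was added after seeing the data.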
